A study of Mus musculus with 8 samples.

Results

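*Sesn2*, *Gdf15* and *Ephx1* are stress response genes, and the binding of p53 around them was followed in mouse alveolar organoids damaged with bleomycin (BLM). These 3 genes are members of the authors' table of 1425 genes with BLM-enriched p53 regions, and 5 of the 915 enriched regions are assigned to them. The genes were chosen by name from that table, that is, on the contrast of BLM with control (CTRL) in the same libraries. Differences between BLM and CTRL at the assigned regions are therefore given as a description, without a test.

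p53 is a transcription factor that is stabilised after DNA damage. It binds DNA as a tetramer, at sites made of a pair of decamer half-sites, and its targets include genes for cell cycle arrest, apoptosis, DNA repair and protection from stress. *Sesn2* encodes sestrin 2, which restrains the growth regulator mTORC1 when leucine is scarce and limits oxidative damage. *Gdf15* encodes a secreted stress cytokine of the TGF-β superfamily, whose receptor GFRAL lies in the hindbrain. *Ephx1* encodes microsomal epoxide hydrolase, an enzyme of the endoplasmic reticulum that turns reactive epoxides into diols.

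The organoids were grown from alveolar type II (AT2) cells sorted from the lungs of wild-type adult male mice. They received DMSO (CTRL, n = 2 libraries) or 100 μM bleomycin (BLM, n = 2 libraries) for 24 h, were fixed with 1% formaldehyde and 2 mM DSG, and were immunoprecipitated with the p53 antibody D2H9O. The organoids came from 2 independent mice, and which libraries share a mouse is not stated, so the spread between libraries may be partly technical. The organoids were grown from sorted epithelial cells without feeder cells, so they lack the other cells of a lung. The 4 input libraries have no peak list here, and p53 binding does not report the identity of the cells.

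The peak lists held 50430 and 48743 peaks in CTRL and 39577 and 41451 in BLM, with read depth unknown. Each peak carries a fold enrichment over a local background. Neither the control behind that background nor any scaling between libraries is stated. The median fold enrichment was 7.37 and 7.29 in the CTRL lists and 6.67 and 6.59 in the BLM lists. Folds at the assigned regions are therefore accompanied by a percentile or rank within the library's own list, with 100 as the highest percentile. Most other folds are given alone, and groups that overlap in fold need not overlap in percentile. Across the 26316 joined regions that had a peak in all 4 libraries, the median of log2 fold enrichment, mean of BLM minus mean of CTRL, was -0.37. The differences at the members, given on the same log2 scale, stand beside this shift. With 2 libraries a group, the smallest two-sided p of an exact permutation test is 0.333, and no test was run.

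Of the 5 assigned regions, 4 had a peak in all 4 libraries and 1 had a peak in the BLM libraries alone. Over all 915 enriched regions, 56.8% were called in BLM alone. With 5 regions, this share is given as background only. In each of the 4 regions called everywhere, both BLM folds lay above both CTRL folds. The same held for 86.8% of the 280 enriched regions called in all 4 libraries, which were picked for this difference, and for 5.87% of all 26316 joined regions called in all 4. Within their own lists, both BLM peaks stood at a higher percentile than both CTRL peaks at these 4 regions. This held for 11.8% of all the joined regions, but the 4 come from the list picked for this difference.

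**Figure D1:**
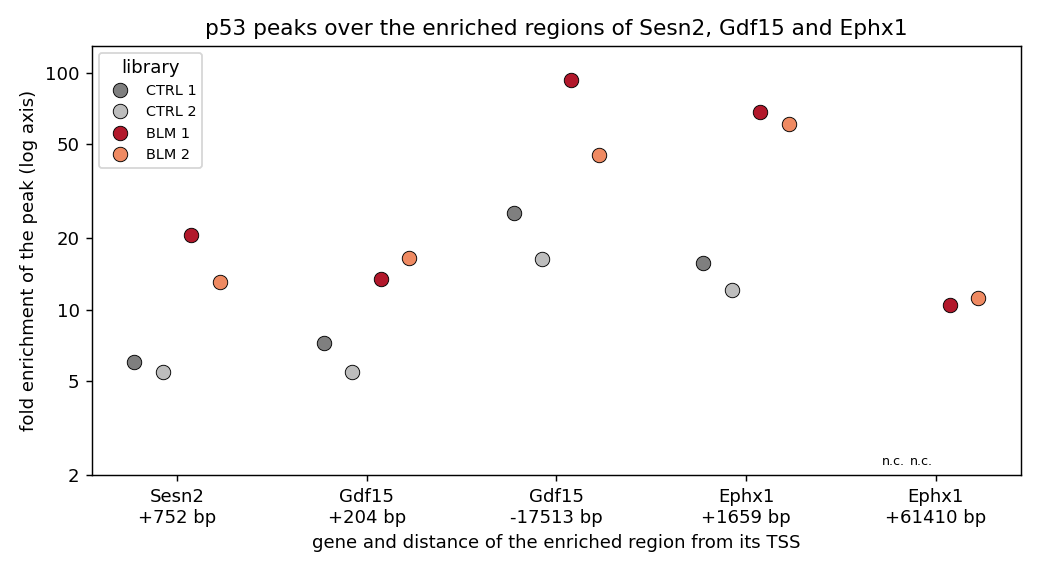
Fold enrichment (log axis) of the p53 peak over each of the 5 enriched regions, by gene and signed distance from the transcription start site (TSS). Each point is 1 library and n.c. marks a library with no peak called; BLM points lie above CTRL points at the 4 regions called in all libraries, and the *Ephx1* region at +61410 bp has only BLM peaks.

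*Ephx1* (gene ID 13849, minus strand) had the highest promoter-proximal p53 peak of the 3 genes. Its nearest region lies 1659 bp downstream of the TSS (position 180845134 of chromosome 1), at chr1:180843276-180843675 on GRCm39, within the length of the *Ephx1* gene. It is also assigned to *Tmem63a*, a membrane channel gene, 73451 bp away. Fold enrichment at this site was 15.8 in CTRL 1, 12.1 in CTRL 2, 68.7 in BLM 1 and 60.8 in BLM 2. Both BLM values were thus above both CTRL values, and the replicates of each condition lay close together. Means were 13.9 ± 2.66 for CTRL and 64.7 ± 5.59 for BLM (SD, n = 2 each). The ratio of BLM to CTRL was 4.68 (log2 difference 2.23), and over the single pairs of libraries it ran from 3.84 to 5.70. Here and below, a ratio beside a log2 difference comes from the means of the log2 folds. It is a ratio of geometric means and not of the arithmetic means printed with it. The BLM peaks ranked 32 of 39577 and 35 of 41451 in their lists (percentile 99.92 in both), and the CTRL peaks stood at percentile 90.8 and 80.8. The caller's −log10 q at this site was 36.1 and 21.7 in CTRL and 265 and 242 in BLM.

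The summits at this *Ephx1* site lay at +1767 and +1772 bp in CTRL and at +1769 and +1762 bp in BLM, all within 10 bp of each other. The peaks were 271 and 328 bp wide in CTRL and 1459 and 1748 bp wide in BLM, and the BLM peaks reached upstream to +530 and +334 bp. These widths stood at percentile 99.5 and 99.8 of the BLM lists. The stretch that the BLM peaks reached into was also called in CTRL, as separate peaks. CTRL 1 had peaks from +306 to +635 bp and from +775 to +1074 bp, and the CTRL 2 peak over the TSS ran to +1050 bp. The BLM widths may thus take in neighbouring signal that was called apart in CTRL. Both BLM peaks were wider than both CTRL peaks at all 4 member regions called everywhere, as they were at 67.5% of the 280 enriched regions of that kind.

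A separate peak was called over the *Ephx1* TSS in every library. Its fold enrichment was 9.53 in CTRL 1, 17.3 in CTRL 2, 10.0 in BLM 1 and 14.2 in BLM 2. The groups overlapped, with CTRL 2 highest, and the log2 difference was -0.11. BLM and CTRL folds were thus separate at the site inside the gene and not at the TSS, although the site and the TSS were not compared by a test. The CTRL 2 peak over the TSS was 1246 bp wide and took in a stretch where CTRL 1 had 2 further peaks, with summits at +518 and +951 bp and folds of 5.38 and 5.71.

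The RefSeq promoter window of *Ephx1* is shown because a peak was called over the TSS in both conditions, while the BLM-enriched site lies outside the window. It spans chr1:181017520-181017819 on GRCm38.p6, minus strand, and runs from 250 bases before the RefSeq start to 50 bases from it on.
*Ephx1* promoter window: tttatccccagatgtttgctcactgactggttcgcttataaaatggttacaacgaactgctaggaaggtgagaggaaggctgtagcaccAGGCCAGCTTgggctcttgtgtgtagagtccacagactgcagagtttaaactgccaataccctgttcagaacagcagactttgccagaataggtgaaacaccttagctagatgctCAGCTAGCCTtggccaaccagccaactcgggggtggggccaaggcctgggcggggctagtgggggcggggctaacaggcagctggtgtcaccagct
The capitals mark the decamers that differ from the p53 half-site consensus at no more than 1 position. There are 2 of them, AGGCCAGCTT from position -161 and CAGCTAGCCT from position -46, counted from the RefSeq start. Decamers of this kind occur in 70.0% of the 32851 RefSeq promoter windows of 300 bases, and an exact half-site in 8.36%. The consensus reads the same on both strands. No exact half-site is in this window, whose GC content is 54.3%.

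The second *Ephx1* region, at chr1:180783525-180783924 on GRCm39, lies 61410 bp downstream of the TSS and so past the end of the gene. For *Tmem63a*, to which it is also assigned, it lies 13700 bp downstream of the TSS and within the length of the gene. It was called in BLM 1 with a fold of 10.5 (percentile 84.0) and in BLM 2 with 11.2 (percentile 86.1). No CTRL library had a peak there. Its summits lay at +61407 and +61411 bp, and its peaks were narrow, at 194 and 174 bp. Of all peaks within 50 kb of the *Ephx1* TSS, none had its summit upstream of it in any of the 4 libraries. The window held 5 and 4 peaks in CTRL and 3 in each BLM library. Besides the TSS and the enriched site, all libraries had a peak between +7606 and +7734 bp. That peak had folds of 7.21 and 8.75 in CTRL and 7.61 and 6.58 in BLM, so the groups overlapped.

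*Gdf15* (gene ID 23886, minus strand) had an assigned region far upstream, with the highest single peak of the 3 genes, and another at its start. The distal region lies upstream, at -17513 bp from the *Gdf15* TSS (position 71084745 of chromosome 8), at chr8:71102059-71102458 on GRCm39. It is also assigned to *Pgpep1*, which encodes a peptidase that removes pyroglutamyl residues, 10130 bp downstream of the *Pgpep1* TSS and within the length of that gene. The fold enrichment there was 25.5 in CTRL 1, 16.3 in CTRL 2, 93.6 in BLM 1 and 45.1 in BLM 2. Every BLM value was above every CTRL value, but BLM 1 was far above BLM 2, in which the *Ephx1* site was higher. Means were 20.9 ± 6.52 for CTRL and 69.3 ± 34.3 for BLM (SD, n = 2 each), and the ratio of 3.18 (log2 difference 1.67) ran from 1.77 to 5.73 over the pairs of libraries. The BLM peaks ranked 7 of 39577 and 83 of 41451, while the CTRL peaks already stood at percentile 98.9 and 91.9.

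The distal *Gdf15* summits lay between -17526 and -17504 bp, within 22 bp of each other over the 4 libraries. The BLM peaks were 855 and 907 bp wide against 377 and 367 bp in CTRL. The same position was thus called in both conditions with a narrow range of summits.

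At the start of *Gdf15*, the region 204 bp downstream of the TSS (chr8:71084342-71084741 on GRCm39) had a fold of 7.23 in CTRL 1, 5.47 in CTRL 2, 13.5 in BLM 1 and 16.5 in BLM 2. BLM values were again above CTRL values, with BLM 2 the highest. Means were 6.35 ± 1.25 for CTRL and 15.0 ± 2.08 for BLM (SD, n = 2 each), and the ratio was 2.37 (log2 difference 1.25), from 1.87 to 3.01 over the pairs of libraries. The percentiles were 48.7 and 23.5 in CTRL and 93.1 and 96.4 in BLM.

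The summits at the *Gdf15* start differed between conditions. They lay at +371 and +372 bp in CTRL and at +148 and +142 bp in BLM, so the replicates of each condition were 1 and 6 bp apart and the condition means 226.5 bp apart. Over the 280 enriched regions called in all 4 libraries, the condition means were a median of 21.8 bp apart (90th percentile 235 bp) and the replicates a median of 26 bp (CTRL) and 11 bp (BLM). The BLM peaks spanned -12 to +617 bp and +24 to +693 bp, and the CTRL peaks, from +250 to +560 bp and from +255 to +557 bp, lay inside them. The CTRL peaks covered the enriched region by 49.5 and 49.2% of their own width. If 50% of the shorter interval must be shared, this region counts as called in BLM alone, which raises the number of such member regions from 1 to 2.

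The RefSeq window before the downstream start of *Gdf15* is shown because the distances place the table's TSS there. RefSeq gives 2 starts for this gene, 361 bp apart. The distal region is assigned to *Gdf15* and *Pgpep1*, and its distances put their starts 27643 bp apart on mm10, which equals the RefSeq distance from *Pgpep1* to the downstream start of *Gdf15* to within 0 bp. For *Ephx1* and *Tmem63a* the same comparison left 59 bp. Over all 465 region and gene pairs that could be compared, 23.4% matched within 10 bp. The window spans chr8:70632046-70632345 on GRCm38.p6, minus strand.
*Gdf15* promoter window, downstream start: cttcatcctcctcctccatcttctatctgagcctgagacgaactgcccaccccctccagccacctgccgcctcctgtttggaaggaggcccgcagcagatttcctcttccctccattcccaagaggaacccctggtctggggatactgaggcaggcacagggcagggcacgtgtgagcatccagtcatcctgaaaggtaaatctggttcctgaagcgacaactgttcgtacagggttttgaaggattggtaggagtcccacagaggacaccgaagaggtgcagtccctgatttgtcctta
It holds no decamer within 1 mismatch of the half-site and no CATG, the tetramer at the heart of many half-sites, so it is all in lower case. The window of the upstream start, chr8:70632407-70632706, also holds no such decamer, but it has 2 CATG, from positions -127 and -98. CATG occurs in 61.1% of the RefSeq windows.

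Within 50 kb of the *Gdf15* TSS there were 13 and 11 peaks in CTRL and 9 and 14 in BLM. The difference in the mean (12.0 ± 1.41 against 11.5 ± 3.54, SD, n = 2) was smaller than the spread between replicates, and it turned round within 10 kb (2.5 in CTRL, 4 in BLM) and with equal numbers of peaks per list (10.5 and 11.5). A peak between +2153 and +2223 bp was present in all libraries, with folds of 14.0 and 15.3 in CTRL and 7.72 and 15.9 in BLM. It overlapped between groups, and BLM 1 had the lowest value. It is not in the enriched list.

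*Sesn2* (gene ID 230784, minus strand) had 1 assigned region, 752 bp downstream of its TSS (position 132237812 of chromosome 4), at chr4:132236861-132237260 on GRCm39, within the gene. The fold enrichment was 6.002 in CTRL 1, 5.47 in CTRL 2, 20.7 in BLM 1 and 13.0 in BLM 2. The CTRL values were close together and low, and both BLM values were above them, with BLM 1 higher. Means were 5.74 ± 0.377 for CTRL and 16.9 ± 5.41 for BLM (SD, n = 2 each). The ratio was 2.87 (log2 difference 1.52), from 2.17 to 3.78 over the pairs of libraries. In CTRL the peaks stood in the lower part of their lists, at percentile 32.7 and 23.5, and in BLM at 98.7 and 91.2, which was the widest step in percentile of the nearest regions of the 3 genes. The −log10 q was 7.23 and 6.70 in CTRL and 54.6 and 34.8 in BLM.

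The summits of the *Sesn2* peak lay at +767 bp in BLM 1, +774 bp in BLM 2 and +776 bp in CTRL 2. In CTRL 1 the summit was at +933 bp, although its peak spanned +594 to +1031 bp and so covered the other summits. The peak was 502 and 484 bp wide in BLM and 438 and 216 bp wide in CTRL.

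A peak also lay over the *Sesn2* TSS in each library, with folds of 6.64 and 7.76 in CTRL and 7.04 and 9.29 in BLM. The folds overlapped between groups, and the log2 difference was 0.17, beside the median of -0.37 over the joined regions. Within their own lists, both BLM peaks (percentile 56.1 and 76.0) stood above both CTRL peaks (42.1 and 54.2). As at *Ephx1*, the enriched site was a peak inside the gene and separate from the peak over the TSS. The RefSeq promoter window of *Sesn2*, shown for the same reason as that of *Ephx1*, spans chr4:132510407-132510706 on GRCm38.p6, minus strand.
*Sesn2* promoter window: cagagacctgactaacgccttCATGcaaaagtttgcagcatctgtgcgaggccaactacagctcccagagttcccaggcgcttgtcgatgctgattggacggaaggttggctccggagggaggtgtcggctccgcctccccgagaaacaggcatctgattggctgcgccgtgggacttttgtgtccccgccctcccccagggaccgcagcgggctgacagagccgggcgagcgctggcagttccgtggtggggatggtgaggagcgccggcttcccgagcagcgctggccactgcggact
The capitals mark its single CATG, from position -229. It holds no decamer within 1 mismatch of the half-site, and its GC content of 64.7% is above the median of 52.7% over the RefSeq windows. The enriched site lies outside it, and the bases under the enriched peaks, which are on GRCm39, were not analysed here.

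**Figure D2:**
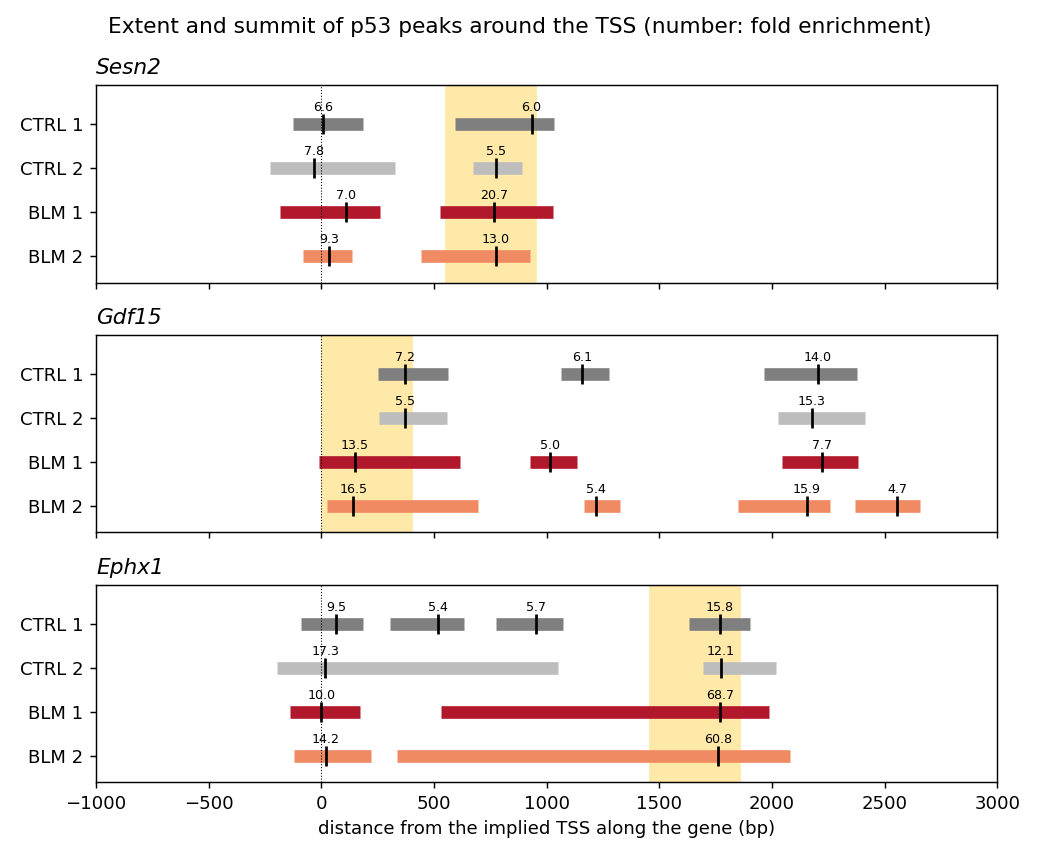
Extent (bars) and summit (ticks) of all p53 peaks from 1 kb before to 3 kb after the implied TSS, by library, with the fold enrichment of each peak printed above its summit and the nearest enriched region shaded. The shaded peaks are higher in BLM in each gene, the peaks over the TSS of *Sesn2* and *Ephx1* overlap in fold between conditions, and the *Gdf15* summits sit at +148 and +142 bp in BLM and +371 and +372 bp in CTRL.

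Around the *Sesn2* TSS, within 50 kb, there were 13 and 16 peaks in CTRL and 13 and 10 in BLM, with means of 14.5 ± 2.12 and 11.5 ± 2.12 (SD, n = 2 each). The *Gdf15* window had means of 12 in CTRL and 11.5 in BLM. BLM 1 and CTRL 1 held the same number. In CTRL the highest peak of the window lay at +46512 and +46523 bp, with folds of 13.6 and 14.2, and in BLM this peak had 9.18 and 10.96. In BLM 1 the highest was the enriched site. In BLM 2 it was a peak at -5121 bp with a fold of 14.6, where BLM 1 had 5.44 and the CTRL libraries 8.32 and 5.35. This upstream peak thus differed more between the BLM replicates than between conditions, and it is not in the enriched list.

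**Figure D3:**
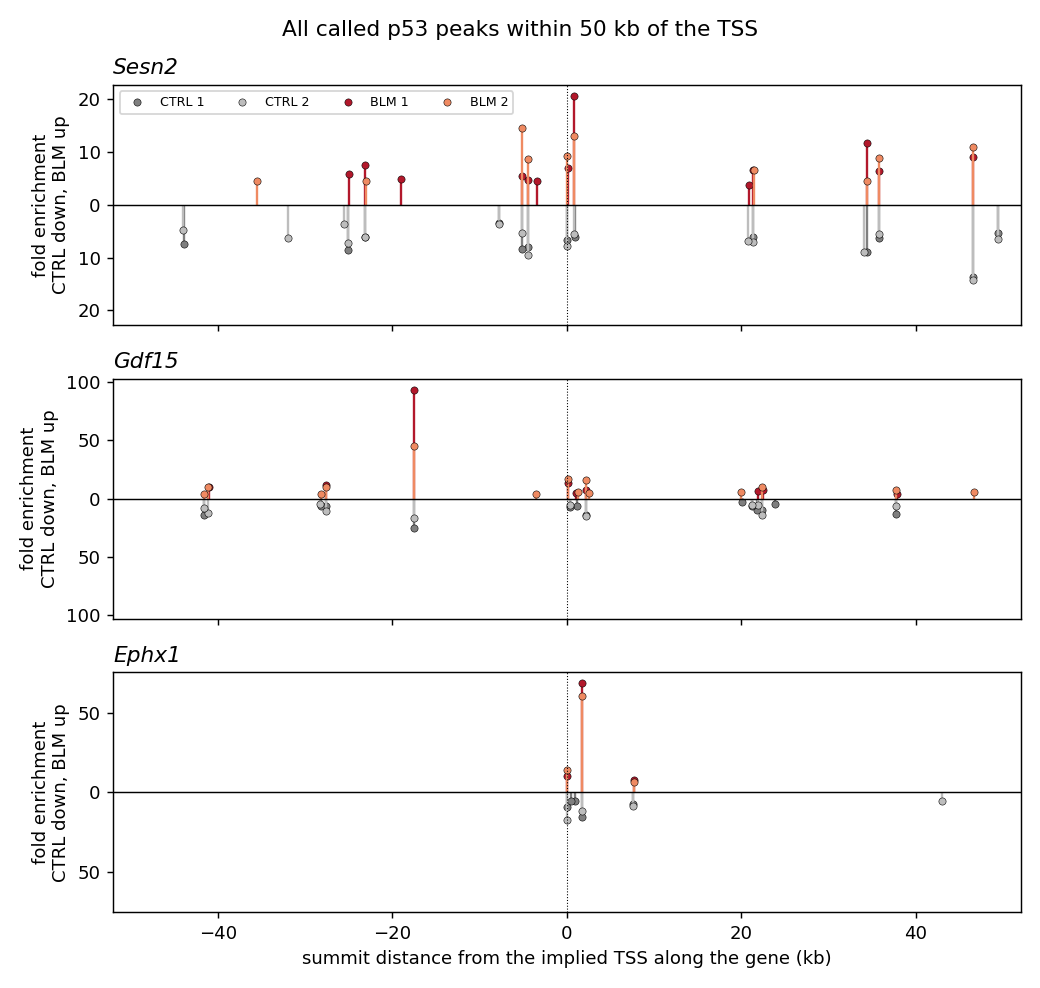
All p53 peaks called within 50 kb of the implied TSS of each gene, at the distance of their summit from the TSS along the gene (kb), with BLM fold enrichment drawn upwards and CTRL downwards. Each stem is 1 peak of 1 library; the distal *Gdf15* site and the *Ephx1* site at +1659 bp stand above the other peaks of their windows in BLM, and the *Ephx1* window has no upstream summit.

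The 3 windows together held 36 joined regions, 18 of them called in all 4 libraries. Another 4 were called in both CTRL and no BLM library, 0 in both BLM and no CTRL library, 8 in a single library and 6 in other combinations. The *Ephx1* region at +61410 bp lies outside its window, and the peaks over the *Ephx1* TSS and over its enriched site were joined into 1 region. Of the 14 that were called everywhere and overlapped no enriched region, 1 had both BLM folds above both CTRL folds, against the 5.87% of all joined regions given above. It was a *Sesn2* peak between +35730 and +35776 bp, with folds of 6.29 and 5.53 in CTRL and 6.42 and 8.99 in BLM. By percentile within the own list, which does not depend on the scale of each library, both BLM peaks were above both CTRL peaks in 4 of the 14, 3 around *Sesn2* and 1 around *Gdf15*, against the 11.8% of all joined regions. The median log2 difference of the 14 was -0.03 around *Sesn2* (8 regions) and -0.42 around *Gdf15* (5 regions), and the single one around *Ephx1* had -0.17. Both BLM values were thus above both CTRL values at 4 of the 4 enriched regions in these windows on both scales, and at 1 (fold) or 4 (percentile) of the 14 others, a contrast that the choice of the enriched regions on these libraries favours.

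**Figure D4:**
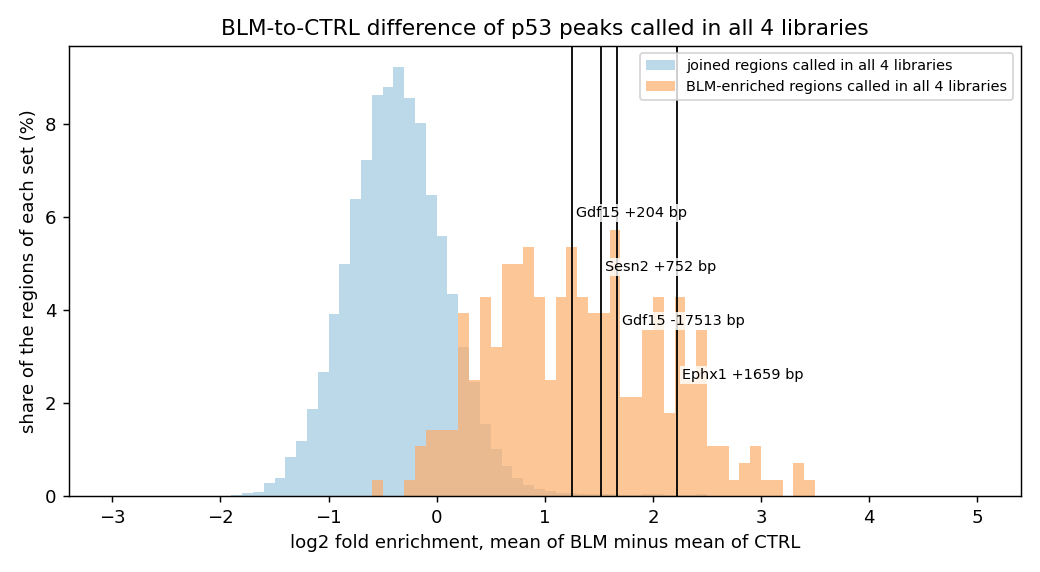
Distribution of the log2 difference in fold enrichment (mean of BLM minus mean of CTRL) over the 26316 joined regions and the 280 enriched regions called in all 4 libraries, as the share of each set in bins (%). Vertical lines mark the 4 member regions called in all libraries, from 1.25 to 2.23, to the right of the median of -0.37 over the joined regions.

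Among the 280 enriched regions called in all 4 libraries, which had a median log2 difference of 1.26, the members spread over the upper part and the middle. The *Ephx1* site ranked 42, the distal *Gdf15* site 89, the *Sesn2* site 109 and the site at the *Gdf15* start 143. Taking the 185 genes whose nearest region was within 5 kb of the TSS, the mean BLM fold of the nearest region ranked 5 for *Ephx1*, 82 for *Sesn2* and 96 for *Gdf15*, against a median of 15.5. *Ephx1* thus stood near the top of the promoter-proximal sites by peak height, and *Sesn2* and *Gdf15* near the middle.

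Likeness to the nearest region of each gene was measured by the root mean square difference in percentile over the 4 libraries, among the same 185 genes. For *Sesn2* the closest were *Klhl38* (6.42 percentile points), *Cdc34* (7.75), which encodes a ubiquitin-conjugating enzyme, and *Spaca6* (8.66), a sperm protein gene. For *Gdf15* they were *Cdc34* (5.61), *Grhl3* (6.70), an epithelial transcription factor gene, and *Sac3d1* (7.91). For *Ephx1* they were *Tmem29* (1.22), *9030617O03Rik* (2.84) and *Phlda3* (3.19), a known p53 target that inhibits AKT. Percentiles flatten near 100, and *Tmem29* had folds of only 21.5 and 18.8 in BLM, whereas *Phlda3* had 61.5 and 74.1, close to the values of *Ephx1*.

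Of 71 other genes in 8 lists of related functions, 10 have an assigned region and 3 have one at no more than 5 kb from the TSS. As background, 1375 of 21896 RefSeq protein-coding genes (6.28%) have a region at any distance. Only 185 of the 1425 genes in the authors' table have one within 5 kb, and genes outside that table have no region. Beside the 21896 protein-coding genes, 185 is a small number, but the exact share was not computed. The 6.28% is also the background for the list counts below, none of which was tested. The lists include known p53 targets, and they were drawn up with earlier results of these data known. The other sestrins, *Sesn1* and *Sesn3*, have no assigned region, and neither do the 3 other epoxide hydrolases, *Ephx2*, *Ephx3* and *Ephx4*. Of the 10 other growth differentiation factors, *Gdf7* has a region 69070 bp from the TSS, with folds of 5.35 in CTRL 1 and 6.90 and 5.33 in BLM. *Gdf6* has one 111621 bp from the TSS, with 21.4 and 17.2 in BLM alone. *Sesn2*, *Gdf15* and *Ephx1* were chosen from the table for having a region, and a region within 5 kb is rare among genes. Their being the only family members with one that near is therefore a description, and it was not tested.

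Of the 16 other p53 targets in redox control and metabolism, 3 have a region. *Trp53inp1*, an autophagy and antioxidant gene, has one at -172 bp from its TSS, with folds of 13.3 and 13.6 in CTRL and 30.1 and 37.5 in BLM. Like the *Ephx1* site, it was well up the CTRL lists, at percentile 84.7 and 85.8. *Ddit4*, whose product also restrains mTORC1, has one 3304 bp downstream, with folds of 10.4 and 9.29 in BLM and no CTRL peak. *Sat1*, a polyamine catabolism gene, has one 14480 bp downstream, with folds of 8.13 and 6.58 in BLM alone. Of the 10 p53 targets in DNA repair, *Ercc5*, a nucleotide excision repair nuclease, has one 928 bp downstream, with 19.0 and 14.2 in BLM alone.

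*Sesn2* and *Ephx1* are also on a list of 12 genes of the NRF2 response to oxidants and xenobiotics. Of the 10 others, *Gclc*, *Srxn1* and *Txnrd1*, which serve glutathione synthesis and thiol reduction, have a region, all beyond 5 kb. The *Gclc* peak, at -9602 bp, had folds of 15.0 and 17.6 in CTRL and 15.6 and 16.6 in BLM, so the folds overlapped between groups. Within their own lists, both BLM peaks (percentile 96.0 and 96.5) stood above both CTRL peaks (89.0 and 93.9). The *Srxn1* peak, at -10171 bp, had 26.7 and 13.2 in BLM alone. The *Txnrd1* peak, at -61605 bp, had 5.41 and 12.1 in CTRL and 34.6 and 25.4 in BLM. *Sesn2* and *Gdf15* are on a list of the integrated stress response, but they were picked for having a region. Of the 7 other genes on it, including *Atf3*, *Atf4* and *Ddit3*, 0 have a region, against 6.28% of RefSeq protein-coding genes. With 7 genes, this count does not set the list apart from that share. Of the 14 genes of nutrient sensing around the sestrins, *Tsc2*, an inhibitor of mTORC1, has one 27745 bp downstream, with 17.0 and 9.68 in BLM alone.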

How the data were processed

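p53 ChIP-seq peaks of 4 libraries were used. Per the labels, the submitters' processing notes name Trim Galore 0.6.7, Bowtie2 2.5.1, MACS3 3.0.0b1, DiffBind 3.8.4 and edgeR 3.40.2, and the builds mm39 and mm10. The role of each tool, its settings, the control used in peak calling and the handling of duplicates are not given in the sources used here. The deposited peak lists hold a score (10 times the −log10 q), a fold enrichment, or ratio to local background, and −log10 values of the p-value and q-value. The authors deposited no counts for these peaks, so the depth is unknown and no counting interval is given. The enriched regions were also deposited, with their assignment to genes by GREAT 4.0.4 on mm10.

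Each TSS on GRCm39 was implied by the middle of the nearest region and its signed distance. All 3 genes are on the minus strand by RefSeq, so the distance was added. The regions of *Gdf15* and of *Ephx1* then implied a single position each (spread 0 bp, against 35434 and 119502 bp with the sign of a plus strand gene). By strand, the positions agreed within 10 bp in 140 of 148 genes with several regions. *Sesn2* has a single region and no such check. Distances of peaks are on GRCm39 and no position was converted.

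A peak counted as lying over a region with an overlap of at least 1 bp, and the highest peak of a library was taken. Peaks of the 4 libraries that overlapped were joined. On simulated lists, 2000 of 2000 regions were assigned to the right libraries. The simulated regions lay too far apart to touch, so the joining of close neighbours, as around the *Ephx1* TSS, was not tried. Python 3.11.15, numpy 2.4.6, pandas 2.3.3 and matplotlib 3.10.9 were used, with promoter sequences, names and lengths from RefSeq (GRCm38.p6). The genes, lists and comparisons were chosen with earlier results of these data known. Named genes are the 3 members, the genes sharing their regions, the 3 genes most like each member and up to 4 genes of each list, nearest region first; the list genes at 0 named as families or examples were added after their values were seen. The alternatives were other overlaps, ranks, windows, a −log10 q of at least 5, equal list lengths, centring and each library left out.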

Additional observations from a re-analysis of the deposited data

How the results depend on the processing

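Over 94 values recomputed under alternatives, 81 kept close to the reported value. The other 13 differed by more than the spread between replicates, or by over 1.5 times for a count. No percentile or log2 difference changed sign. Some of these outcomes were fixed in advance. With 2 libraries a group, leaving 1 out shifts a group mean by less than the SD of the pair. It also cannot turn a sign where both BLM values lie above both CTRL values. Each library that called a member region had 1 peak there, so taking the longest overlap could change nothing. Centring on the median of the joined regions raised the log2 differences to 1.89 for *Sesn2*, 1.62 for *Gdf15* and 2.60 for *Ephx1*. Requiring an overlap of at least 50% gave 2 member regions called in BLM alone in place of 1. Keeping peaks from a −log10 q of 5 upwards gave 78.0 in place of 66.8 points for the difference in percentile at *Sesn2*. Within 10 kb the mean number of peaks (CTRL, then BLM) was 5 and 4.5 for *Sesn2* and 2.5 and 4 for *Gdf15*, where BLM was then the higher, as it was with equal numbers of peaks per list (10.5 and 11.5). Within 100 kb it was 25.5 and 20 for *Gdf15* and 8.5 and 6.5 for *Ephx1*, which the size of the window itself changes.

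With each library left out in turn, the log2 difference ranged from 1.19 to 1.85 for *Sesn2*, 1.05 to 1.45 for *Gdf15* and 2.03 to 2.42 for *Ephx1*, and the difference in percentile from 62.3 to 71.4, 46.0 to 71.3 and 9.11 to 19.1 points for the same genes. The peak lists give no read counts, so what depth limits is unknown. No paired analysis was possible because no result comes from a test, and equal replicate numbers are not said to mark a mouse. As a description, the ratio of BLM to CTRL between libraries of equal number was 3.45 and 2.38 for *Sesn2*, 1.87 and 3.01 for *Gdf15* and 4.34 and 5.04 for *Ephx1* (number 1, then 2).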
